A study of Mus musculus with 12 samples.

Results

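Liver tRNA fragments were compared between chronic and acute chemical injury in mice that lack NSUN2. The comparison holds 4 of the 12 libraries of the series, chosen by their group labels: 2 libraries labelled NS-KO D27 and 2 labelled NS-KO D3. All of these mice carried a Cas9-made NSun2-/- deletion bred to the B6D2F1/Crl background, were male, were used at 8–12 weeks of age and were injected from week 9. NS-KO D3 mice received carbon tetrachloride (CCl4, 40% in corn oil, 2 mL per kg into the abdomen) once, and NS-KO D27 mice received it repeatedly. The NS-KO D0 mice (2 libraries), given corn oil only, supply the control level, and the 6 wild-type (WT) libraries of the same 3 states enter the fit and 1 test of the difference between genotypes. Each library is a separate mouse, so n = 2 in every group. The number of doses behind D27 is not given in the sources used here, and the effects of repeated dosing, of time since the last dose and of age cannot be told apart. NSun2 RNA cannot be checked here, because the libraries hold tRNA fragments only.

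CCl4 is turned into a toxic radical by the enzymes of hepatocytes, so 1 dose kills cells around the central veins and repeated doses lead to chronic injury with scarring. tRNA-derived small RNAs (tsRNAs) are pieces of mature tRNAs or of their precursors. NSUN2 writes 5-methylcytosine on many nuclear tRNAs and on some mitochondrial ones, and tRNAs without this mark are known to be cut more readily in stressed cells. Fragments of the mature 5′ end are called tRF-5a, tRF-5b, tRF-5c and tiRNA-5 in order of length, those of the 3′ end tRF-3a, tRF-3b and tiRNA-3, and the trailer that RNase Z removes from the precursor gives the tRF-1s. Everything else was put under "Other" in the deposited table, and this class holds most of the mitochondrial fragments. An isodecoder is written here as amino acid and anticodon, and mt marks a mitochondrial tRNA. Mouse mitochondrial tRNA genes lie on both strands of the circular genome and punctuate its long transcripts, so that cutting out a tRNA also frees its neighbours.

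The NS-KO D3 libraries held 221446 and 127326 reads and the NS-KO D27 libraries 46973 and 57514, so 3 reads, the most that a count of 0 allows, corresponded to 13.6 and 23.6 CPM (counts scaled to library size) in the D3 livers and to 63.9 and 52.2 CPM in the D27 livers. Mitochondrial tRNAs gave 36.3% and 57.4% of the reads in the D3 libraries, and 35.4% and 34.8% in the D27 libraries. In this share the D3 libraries thus differed from each other more than the D27 libraries did. Scaling also matters: TMM factors, which hold the bulk of the features level, were 0.929 and 0.947 at D3 but 1.51 and 1.83 at D27. The median log2 fold change over the 281 sums described below was therefore −0.12 with TMM and 0.62 with library size only. Each direction below is given against 0 under its scaling, without subtracting a median, and is to be read beside these medians. CPM values are scaled to library size, fold changes to TMM unless said otherwise.

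Fragments from the interior of mitochondrial tRNAs, touching neither end of the mature molecule, were the class that separated the groups by the widest margin. Those that start before the anticodon took 11.3% and 23.9% of reads at NS-KO D3 and 2.50% and 3.22% at NS-KO D27 (17.6% ± 8.89 against 2.86% ± 0.509, SD, n = 2), next to 2.74% and 2.39% at NS-KO D0. Both D27 livers lay below both D3 livers and beside the control level, 6.15-fold lower in the mean (log2 fold change −2.53, SE 0.438, limma adjusted p = 1.35e-06). Those that start at or after the anticodon went from 5.37% and 10.3% to 1.85% and 2.03% (log2 fold change −1.94, limma adjusted p = 0.000214), with 1.99% and 1.84% at D0. The second call was lost without NS-KO D3 replicate 2, at −1.47 with a limma adjusted p of 0.0664, while the first held in each of its 9 alternative settings, from −3.36 to −1.99.

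Of the 17 position classes, 3 were higher (17.6%) and 3 were lower (17.6%) at D27 by limma on shares of the library (1 higher and 8 lower with TMM). The third lower class was the mitochondrial leader, the few bases before a tRNA, at 0.387% and 0.672% against 0.172% and 0.221%. Mitochondrial trailers ran the other way, from 5.00% and 6.22% to 13.1% and 11.9% (2.22-fold, log2 fold change 1.16, limma adjusted p = 0.0328), and stood at 17.4% and 21.2% at D0. Nuclear 3′ ends rose from 2.59% and 2.11% to 5.56% and 6.60% (2.59-fold, log2 fold change 1.38, limma adjusted p = 0.0132). Nuclear interior fragments that start before the anticodon rose from 6.82% and 5.62% to 12.0% and 16.3% (2.27-fold, limma adjusted p = 0.0328). Each of these 4 calls was lost without NS-KO D3 replicate 2 and without either D27 library, and those of the trailers and nuclear interiors also without NS-KO D3 replicate 1 and with TMM (0.34 and 0.35). The largest class, nuclear 5′ ends, overlapped between groups at 43.8% and 23.5% against 33.5% and 25.8%. By subtype and by length no difference passed the test. The groups did not overlap for 6 of the 10 subtypes (5 with D27 above) and 13 of the 27 read lengths from 14 to 40 nt, but none of the subtypes (0%) and none of the lengths (0%) passed limma, with 1 subtype (tRF-3b) and 1 length (35 nt) at an unadjusted p under 0.05. The share of tRF-3b was 0.382% and 0.375% at D3 and 0.918% and 1.02% at D27 (limma adjusted p = 0.136), and that of 35 nt reads was 4.12% and 2.98% against 1.72% and 1.93% (limma adjusted p = 0.487). Mean read length was 27.4 and 26.4 nt at D3 and 26.0 and 24.8 nt at D27.

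**Figure D1:**
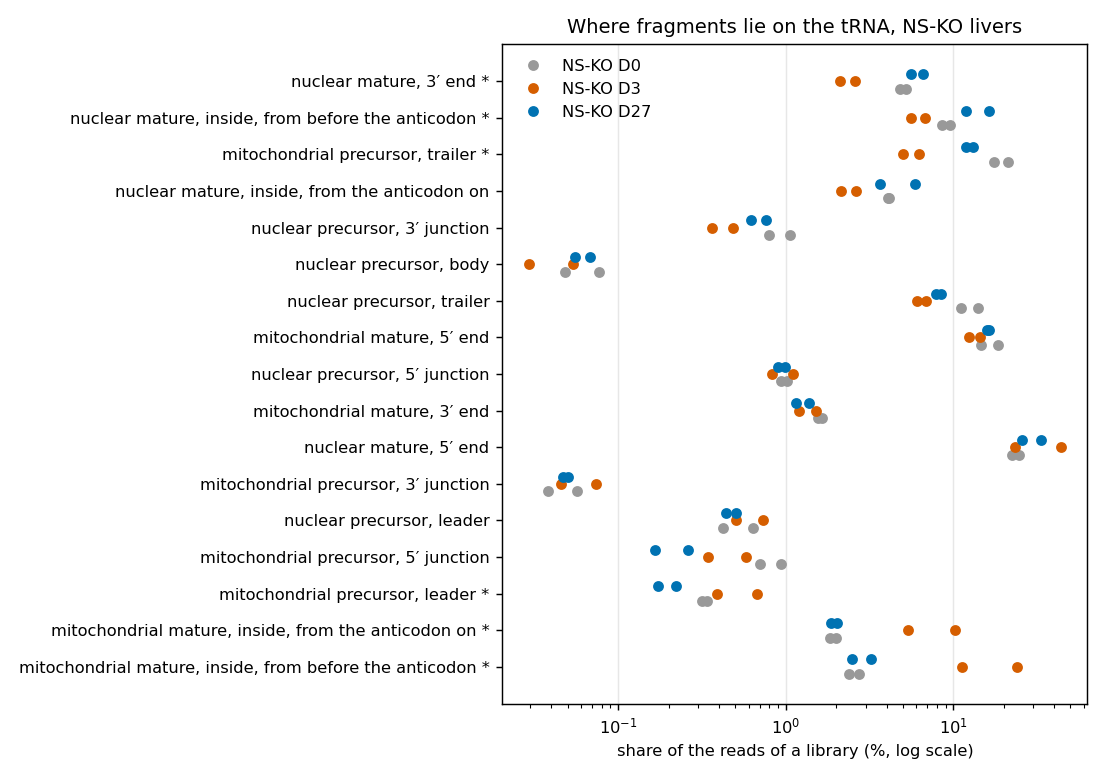
Share of the reads of each NS-KO library (x axis, %, log scale) by where a fragment lies on the tRNA (y axis, ordered by the D27 against D3 fold change); each point is 1 library, and * marks the 6 classes with a limma adjusted p under 0.05. Interior mitochondrial fragments (bottom) lie at 11.3% and 23.9% at D3 against 2.50% and 3.22% at D27, and nuclear 3′ ends (top) at 2.59% and 2.11% against 5.56% and 6.60%.

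The stretch covered by interior fragments was not at the same place in all mitochondrial tRNAs. The sequences of 4 tRNAs are shown as examples of where it lies, mt-His because it gave the most interior reads; capitals mark the stretch where coverage by interior fragments reached at least 50% of its D3 peak, and each runs from the first base of the tRNA to the added CCA.
mt-His-GTG: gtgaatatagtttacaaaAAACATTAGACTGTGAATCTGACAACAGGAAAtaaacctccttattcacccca
mt-Ser-TGA: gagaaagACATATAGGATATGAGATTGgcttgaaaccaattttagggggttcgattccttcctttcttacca
mt-Pro-TGG: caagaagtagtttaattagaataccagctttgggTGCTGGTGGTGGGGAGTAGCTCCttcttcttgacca
mt-Cys-GCA: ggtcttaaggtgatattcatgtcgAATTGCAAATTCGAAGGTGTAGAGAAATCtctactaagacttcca
On the mouse mitochondrial genome (GRCm38) these tRNAs lie at chrM:11545-11612 (mt-His), chrM:6870-6938 (mt-Ser-TGA), chrM:15356-15422 (mt-Pro) and chrM:5192-5257 (mt-Cys). The stretch covered bases 19 to 50 of mt-His, around its anticodon, bases 8 to 27 of mt-Ser-TGA, before the anticodon, bases 35 to 57 of mt-Pro, after it, and bases 25 to 53 of mt-Cys, which include it.

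Every one of the 20 mitochondrial isodecoders whose interior sum could be tested was lower at D27 with TMM, against 56 of all 302 sums by position and isodecoder (18.5%; 19 were higher, 6.29%; with library size only, 30 lower and 50 higher). With library size only, 16 of the 20 were lower and none was higher. In 18 of the 20 both D27 livers lay below both D3 livers in CPM. In a different family, the 281 sums by subtype rather than position and isodecoder, both D27 livers lay below in 55 and above in 151. The interior sum of mt-Leu-TAA was lower with TMM only (log2 fold change −0.71), and 0.11 with library size. Reads that miss an end of the tRNA by only a few bases count as interior, so some of these sums hold many near-end fragments. At D3, 64.1% of the interior reads of mt-Trp-TCA ended at base 69 of 70, and 50.2% of those of mt-Ser-GCT started at base 3. Interior fragments of mt-His-GTG, the most read, stood at 59160 and 148500 CPM at D3, 15560 and 19070 CPM at D27 and 6651 and 6605 CPM at D0 (log2 fold change −3.26, limma adjusted p = 5.75e-05). D27 thus lay between the control and D3 for this tRNA. For mt-Ser-TGA the values were 9212 and 20800 CPM at D3, 596 and 939 CPM at D27 and 1243 and 1321 CPM at D0, a 19.6-fold lower mean at D27 (limma adjusted p = 4.97e-06). For mt-Pro-TGG they were 6367 and 11640 CPM, 277 and 522 CPM, and 254 and 234 CPM, 22.6-fold lower (limma adjusted p = 5.90e-06). The means of the mt-Pro interior at D27 and D0 differed by less than the SD of the D27 livers (173 CPM). The fall was 19.7-fold for mt-Cys-GCA, 16.1-fold for mt-Ala-TGC and 13.0-fold for mt-Phe-GAA. The smallest falls in the mean among sums called with both scalings were those of mt-Glu-TTC (3.15-fold) and mt-Gly-TCC (3.64-fold). Some sums of tRNA ends fell as well. Of 16 mitochondrial 5′-end sums, 8 were lower and none higher with TMM (3 lower with library size only). Of 11 mitochondrial 3′-end sums, 3 were lower and none higher (1 lower with library size only). Both D27 livers lay above both D3 livers in CPM in 3 of the 16 and 2 of the 11. The 5′ end of mt-Ser-TGA went from a mean of 11900 to 1462 CPM. As shares of the library, neither class of ends was called (limma adjusted p = 0.728 and 0.891).

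**Figure D2:**
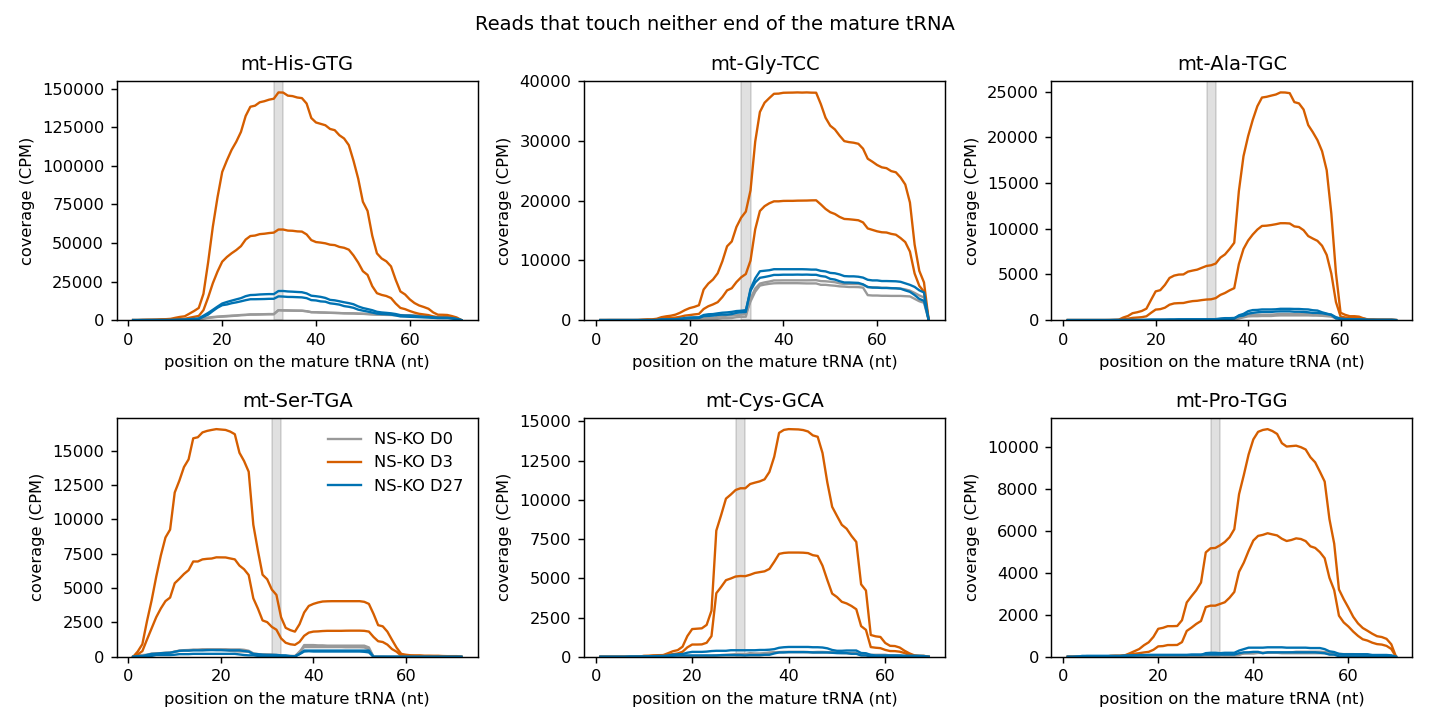
Coverage by fragments that touch neither end of the mature tRNA (y axis, CPM) along 6 mitochondrial tRNAs (x axis, position in nt), with 1 line per NS-KO library and the anticodon shaded; the y axes differ. The covered stretch lies before, around or after the anticodon, and both D3 lines stand above both D27 lines at each peak, as for mt-His at 59160 and 148500 against 15560 and 19070 CPM in all.

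Single interior fragments are shown at base resolution as examples. The 5 with the lowest p among lower fragments of at least 100 reads in these 4 libraries were all interior and mitochondrial. All were read at D3 alone among NS-KO livers. They were picked for this change and passed the filters through the D3 libraries, so they add no further support. Of these, 1 is shown for each of the 3 tRNAs they came from.
mt-Cys-GCA bases 25 to 47: aattgcaaattcgaaggtgtaga
mt-Glu-TTC bases 39 to 59: attggtcgcagttgaatgctg
mt-Gly-TCC bases 28 to 67: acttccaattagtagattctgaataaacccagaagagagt
The mt-Cys fragment had 96 and 107 reads at D3 (434 and 840 CPM) and 0 reads in both D27 and both D0 livers, so it was at least 11-fold lower at D27, with 3 reads per D27 library as the floor (limma adjusted p = 0.00011). The mt-Glu fragment had 46 and 57 reads at D3 and the mt-Gly fragment 61 and 73, and neither was read at D27 or D0. The mt-Gly fragment was at least 7.32-fold lower by the same floor. Both other fragments of the 5 shared the start of the mt-Cys fragment at base 25 and ended at bases 48 and 56. With only the 4 NS-KO D3 and D27 libraries in the fit, no single fragment passed limma, these included.

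Over whole tRNAs the mitochondrial isodecoders were counted by the strand of their genes. In both strand classes, sets of isodecoders that share reads are counted as separate sums beside their members. The light-strand genes, the minority strand of tRNA genes, gave 8 such isodecoder sums. These include a sum for reads that mt-Cys-GCA shares with mt-Asn-GTT, so they are not 8 different tRNAs. All 8 sums were lower with TMM (median log2 fold change −3.91), and 5 of them with library size only (−3.11). Of the 15 sums from heavy-strand genes, 11 were lower (median −1.34), and 4 were lower and 1 higher with library size only (−0.55). Over all 106 isodecoder sums, 27 were lower (25.5%) and 6 higher (5.66%), with a median of −0.25, and with library size only 10 were lower and 13 higher. Whether the strand classes differ was not tested. mt-Pro-TGG as a whole went from 6629 and 12260 CPM to 447 and 817 CPM (log2 fold change −4.66, SE 0.292), mt-Ala-TGC from 10690 and 25090 to 1043 and 1321 CPM, and mt-Asn-GTT from 2520 and 5207 to 405 and 696 CPM. mt-His-GTG, a heavy-strand tRNA, went from 60400 and 150500 to 18440 and 21560 CPM (log2 fold change −3.08, limma adjusted p = 0.000242). Of the 3 most-read mitochondrial isodecoders in these 4 libraries, it was the one called with TMM, and the other two were mt-Ser-GCT and mt-Val-TAC, also of the heavy strand. mt-Ser-GCT stood at 115400 and 108200 CPM against 151900 and 149900 CPM (log2 fold change −0.39, limma adjusted p = 0.371). mt-Val-TAC stood at 45900 and 59010 CPM against 117700 and 99210 CPM (0.23 with TMM, limma adjusted p = 0.586; 1.05 with library size, limma adjusted p = 0.0492).

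Interior fragments made up 11.9% and 5.07% of mt-Ser-GCT and 14.8% and 22.5% of mt-Val-TAC at D3, and 2.59% and 3.67% and 1.45% and 2.10% at D27. Both interior sums were lower with TMM (log2 fold change −1.72 and −3.14, limma adjusted p = 0.0272 and 5.43e-05), that of mt-Ser-GCT with overlapping groups and not with library size (−0.90). Most reads of mt-Ser-GCT were 5′ ends and most of mt-Val-TAC trailers or 3′ junctions, and a main fragment of each is shown because it ran against the interior class in CPM.
mt-Ser-GCT bases 1 to 22: aagaaagattgcaagaactgct
mt-Val-TAC trailer: actaatcctagccctagccct
The mt-Ser-GCT fragment, from the first base of the tRNA (chrM:11613-11671) through its anticodon, had 17250 and 13750 CPM at D3 and 28870 and 27160 CPM at D27, with 34370 and 27250 CPM at D0 (log2 fold change −0.14 with TMM, limma adjusted p = 0.97; 0.86 with library size, limma adjusted p = 0.0259). The mt-Val trailer begins at base 1094, the first base of the 16S ribosomal RNA gene mt-Rnr2, which follows mt-Val directly. Its 21 bases are thus the 5′ end of that ribosomal RNA, and it had 5527 and 6102 CPM at D3, 18900 and 15610 CPM at D27 and 32080 and 42440 CPM at D0 (0.56 with TMM, limma adjusted p = 0.0597; 1.56 with library size, limma adjusted p = 0.0138). Trailers of mt-Val made up 73.0% and 64.6% of mitochondrial trailer reads at D3 and 87.7% and 80.5% at D27. Trailers of mt-Phe, which precedes the 12S ribosomal RNA gene mt-Rnr1, went from 5785 and 10410 CPM to 2640 and 3738 CPM. The D27 livers therefore lay above the D3 livers for the trailer before one ribosomal RNA gene and below them for the other in CPM.

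Among nuclear tRNAs, glycine fragments separated by gene copy. The 5′ fragments of 31 nt that differ at 3 positions are printed because those of Gly-GCC and Gly-CCC fell and the shared one was not called; capitals mark positions 5, 9 and 15, counted from 1 at the 5′ end.
Gly-CCC and Gly-GCC, shared: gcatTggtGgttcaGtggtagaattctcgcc
Gly-GCC: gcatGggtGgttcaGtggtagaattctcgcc
Gly-CCC: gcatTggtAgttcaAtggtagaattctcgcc
The shared fragment matches 4 tRNAs, among them Gly-CCC at chr3:96311254-96311324 (GRCm38). The Gly-GCC fragment carries T5G and matches 1 tRNA at chr1:171066631-171066701 (n-TGgcc12). The Gly-CCC fragment carries G9A and G15A and matches 1 tRNA at chr3:96351167-96351237 (n-TGccc5).

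The shared fragment had 25050 and 14740 CPM at D3 and 25140 and 17560 CPM at D27, with overlapping groups (log2 fold change −0.87, limma adjusted p = 0.322; 0.13 with library size). The Gly-GCC fragment had 12460 and 7712 CPM at D3 and 3300 and 2782 CPM at D27 (−2.69, limma adjusted p = 0.00585). The Gly-CCC fragment had 4651 and 2670 CPM at D3, 319 and 86.9 CPM at D27 and 184 and 128 CPM at D0 (−5.15, SE 0.728, limma adjusted p = 0.00105), so the D27 livers lay at the control level. The D27 values of this last fragment rest on 15 and 5 reads. Reads beginning with the first 28 bases of each fragment, which take in their other lengths, gave 130100 and 65450 CPM at D3 and 116300 and 95190 CPM at D27 for the shared start, 54890 and 29410 against 14820 and 10920 CPM for Gly-GCC, and 46320 and 19780 against 1597 and 956 CPM for Gly-CCC. Of the reads of the Gly-CCC start, 56.0% and 54.98% at D3 and 40.0% and 38.2% at D27 ended in a base that differs from the gene. A further Gly-CCC fragment of 31 nt carries G15A alone and matches 2 tRNAs. It had 14 and 6 reads at D3 (63.2 and 47.1 CPM) and 0 at D27 (−2.25, limma adjusted p = 0.0335). The D27 depth allows up to 63.9 and 52.2 CPM, so a change of this fragment alone was not detectable.

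**Figure D3:**
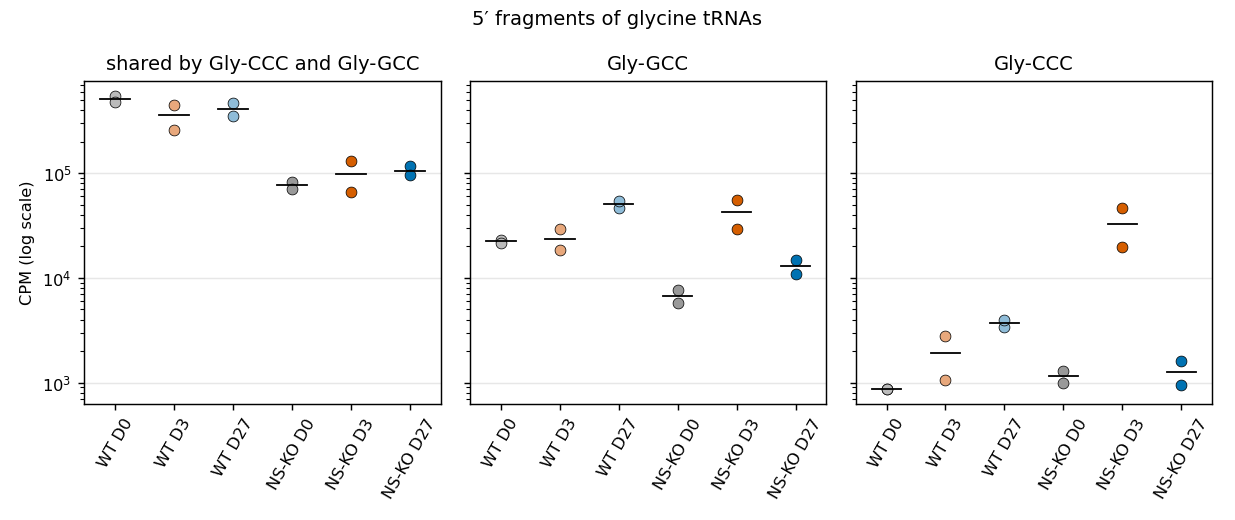
CPM (y axis, log scale) of reads that begin with the first 28 bases of each of the 3 glycine fragments, for each library of the 6 groups (points, n = 2) with the mean (bar). Gly-CCC stood at 46320 and 19780 CPM at NS-KO D3 and at 1597 and 956 CPM at NS-KO D27, while the shared start overlapped between these groups.

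The sums by subtype and isodecoder tell the same of the whole 5′ class. Summed over all its sequences, tRF-5c of Gly-CCC went from 26640 and 15180 CPM to 1384 and 661 CPM, 20.5-fold lower (log2 fold change −5.17, limma adjusted p = 0.000527), with 734 and 490 CPM at D0. Gly-GCC tRF-5c went from 59010 and 31770 to 17140 and 13020 CPM (−2.36, limma adjusted p = 0.0258), a call that was lost without NS-KO D3 replicate 1 or either D27 library (−2.63 to −1.90 over the 4 fits that leave out 1 library). The tRF-5c sums of Glu-CTC (45680 and 28970 against 65850 and 16290 CPM) and of the shared glycine start (131200 and 68420 against 123900 and 98970 CPM) overlapped between groups and were not called. Of the 34 sums of 5′ fragments from tRNAs known as sources of stress-induced fragments cut at the anticodon, 6 were lower and 1 higher (median −0.89). All 65 nuclear 5′ sums held 7 lower and 5 higher. Of the 13 sums of tRNAs that DNMT2, another 5-methylcytosine writer, acts on (Asp-GTC, Gly-GCC and Val-AAC), 3 were lower and none higher (median −0.93). For comparison, 49 of all 281 sums were lower (17.4%) and 19 higher (6.76%), or 29 lower and 47 higher with library size only. Valine sums of 5′ fragments went both ways. The tRF-5b shared by Val-AAC and Val-CAC rose from 1016 and 621 to 3002 and 4121 CPM (1.31, limma adjusted p = 0.0195, up to 0.0762 over its alternatives). The longer tRF-5c sums of reads under Val-AAC alone and Val-CAC alone fell 2.82-fold and 2.73-fold in the mean. These sums differ both in length and in the tRNAs that they match.

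**Figure D4:**
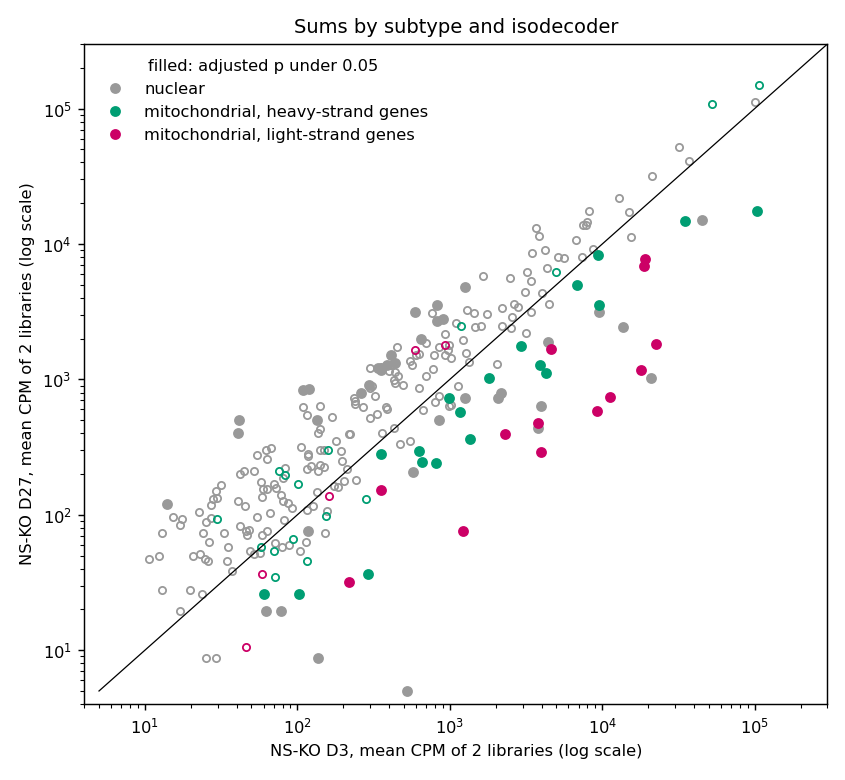
Mean CPM of each of the 281 sums by subtype and isodecoder at NS-KO D27 (y axis) against NS-KO D3 (x axis), both log scales with means under 5 CPM drawn at 5, coloured by genome and strand of the gene; filled points have a limma adjusted p under 0.05 with TMM, and the line marks equal CPM. Filled mitochondrial points lie under the line or close to it, and filled nuclear points lie on both sides.

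Leucine fragments led the sums that were higher at D27. tRF-5b shared by Leu-CAA and Leu-CAG had 36.1 and 47.1 CPM at D3, 447 and 556 CPM at D27 and 311 and 405 CPM at D0 (log2 fold change 2.39, SE 0.345, limma adjusted p = 0.000712). tRF-5b of Leu-CAG alone had 108 and 110 CPM at D3 and 894 and 782 CPM at D27 (1.97, limma adjusted p = 0.00228). Both D27 livers lay above both control livers, and both D3 livers lay below all of them. The tRF-3a shared by the same 2 isodecoders rose from 474 and 346 to 1362 and 1652 CPM (1.04, limma adjusted p = 0.00701, but 0.0652 in the fit of the 4 libraries alone). At D0 this tRF-3a stood at 1327 and 1640 CPM, near its D27 values. The single fragment below was the only one that passed limma among the 5 with the lowest p of the higher fragments of at least 100 reads.
Leu-CAA and Leu-CAG bases 1 to 25: gtcaggatggccgagtggtctaagg
It matches 5 tRNAs and had 12 and 9 reads at D3 (54.2 and 70.7 CPM) and 49 and 40 reads at D27 (1043 and 696 CPM; log2 fold change 2.52, limma adjusted p = 0.00725).

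Among sums of nuclear 3′ fragments the calls were upward. Of 55 such sums, 9 were higher and none lower with TMM (median 0.66), against 19 of all 281 (6.76%), and 23 were higher and none lower with library size (1.35), against 47 of 281. The count of higher sums fell to 2 without NS-KO D3 replicate 2, to 3 without either D27 library (with 1 lower without NS-KO D27 replicate 2), and to 1 in the fit of the 4 libraries alone. In CPM both D27 livers lay above both D3 livers in 50 of the 55, against 151 of all 281 sums. tRF-3b of Trp-CCA went from 49.7 and 31.4 to 426 and 383 CPM (2.14, SE 0.460, limma adjusted p = 0.0079, but 0.0575 with every library thinned to the fewest reads), 9.97-fold. tRF-3a of Gln-CTG went from 912 and 730 to 2299 and 3130 CPM (0.88, limma adjusted p = 0.0215), and tRF-3a shared by Gly-ACC, Val-AAC and Val-CAC from 677 and 613 to 2108 and 1878 CPM (0.79, limma adjusted p = 0.0278). Both of these tRF-3a calls were lost in the fit of the 4 libraries alone, with thinning and without NS-KO D3 replicate 2, at limma adjusted p-values up to 0.0939 and 0.123. By position and isodecoder, 12 of 44 nuclear 3′ sums were higher and none lower, against 19 of all 302 (6.29%), among them Leu-CAA with Leu-CAG (957 and 754 against 2938 and 3999 CPM), Arg-ACG (854 and 165 against 1937 and 3130 CPM) and Glu-TTC (686 and 542 against 1895 and 1895 CPM). The D0 livers had 4363 and 4240 CPM for the 3′ end of Gln-CTG, between 1752 and 1037 CPM at D3 and 5258 and 7059 CPM at D27. At D0, tRF-3a of Gln-CTG stood at 2570 and 2578 CPM, and that shared by Gly-ACC, Val-AAC and Val-CAC at 2104 and 1917 CPM. Both tRF-3a sums thus lay near the control level at D27 and below it at D3. tRF-3b of Trp-CCA stood at 155 and 106.5 CPM at D0, below its D27 values.

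**Figure D5:**
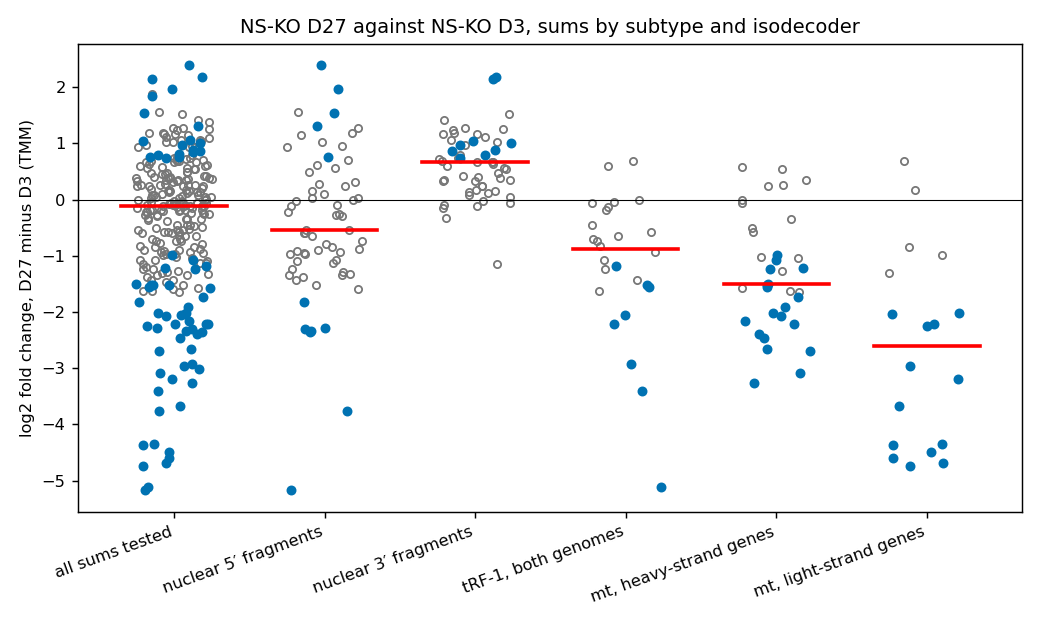
Log2 fold change of NS-KO D27 against NS-KO D3 with TMM scaling (y axis) for the 281 sums and 5 groups of them (x axis, tRF-1 with those of both genomes); each point is 1 sum, filled where the limma adjusted p was under 0.05, and the red line is the median. Medians run from 0.66 for nuclear 3′ fragments to −2.61 for sums of mitochondrial light-strand genes, beside −0.12 for all sums.

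Trailers of nuclear precursors, summed by isodecoder, fell or did not pass the test, while their share as a class did not fall. Nuclear trailers took 6.10% and 6.91% of reads at D3 and 7.88% and 8.40% at D27 (log2 fold change 0.33, limma adjusted p = 0.658), with 11.2% and 14.1% at D0. The tRF-1 subtype, of both genomes, took 4.30% and 4.97% at D3 and 5.13% and 5.85% at D27 (0.25, limma adjusted p = 0.843). Of 23 nuclear tRF-1 sums, 7 were lower and none higher (median −0.93), and with library size 3 were lower and none higher (−0.21), against 49 and 29 lower of all 281 sums. The 3 mitochondrial tRF-1 sums held 1 lower with TMM (mt-Trp-TCA) and 1 higher with library size. The study singled out tRF-1s of 9 isodecoders, with these libraries in view, and of their 9 sums 2 were lower (Ile-AAT and Val-CAC) and none higher with TMM, a share of 22.2% beside 17.4% of all sums, and none was called with library size. 4 trailers are shown because they span the range from loss to none.
Gly-CCC trailer: gtacctctctgttt
Asp-GTC trailer: tctggacacatgtggctttt
Ile-AAT trailer: gtggtagattcttt
Met-CAT trailer: tcggaggctttgtttt
The Gly-CCC trailer follows the tRNA gene at chr3:96351167-96351237 whose 5′ fragment is printed above. It had 37 and 36 reads at D3 (167 and 283 CPM) and 0 reads in both D27 and both D0 livers. All tRF-1s of Gly-CCC had 425 and 621 CPM at D3 and 0 at D27, at least 9.01-fold lower with 3 reads per D27 library as the floor (limma adjusted p = 0.000226). Both ends of what this gene gives were thus read mainly in the D3 livers. The Asp-GTC trailer (precursor of a chromosome 13 gene) went from 935 and 864 to 21.3 and 34.8 CPM, on 1 and 2 reads at D27, and all tRF-1s of Asp-GTC from 3775 and 4155 to 660 and 609 CPM (log2 fold change −3.41, limma adjusted p = 0.000685), with 226 and 384 CPM at D0. The Ile-AAT trailer went from 1951 and 2450 to 681 and 956 CPM (−2.40, limma adjusted p = 0.0111), and was not called with library size (−1.42, limma adjusted p = 0.274). The Met-CAT trailer, from an initiator tRNA precursor, had 3391 and 5262 CPM at D3 and 6472 and 9319 CPM at D27 (−0.12, limma adjusted p = 0.927), and the D0 livers had 17130 and 24820 CPM.

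The tRF-1 of Gln-CTG followed in the study was at the edge of detection here.
Gln-CTG tRF-1: ttggtgtcaggctagttt
It had 5 and 6 reads at D3 (22.6 and 47.1 CPM) and 0 reads in both D27 livers, which at their depth allows up to 63.9 and 52.2 CPM, so a change of this fragment alone was not detectable, whatever its limma adjusted p of 0.00156. The 41 sequences that begin with its first 14 bases gave 506 and 699 CPM at D3, 277 and 122 CPM at D27 and 14.1 and 42.6 CPM at D0. All tRF-1s of Gln-CTG stood at 533 and 621 CPM at D3 and 277 and 139 CPM at D27 (log2 fold change −2.21, limma adjusted p = 0.00733; −1.48 with library size, not called).

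Fragment by fragment, 239 of 22065 sequences were higher (1.08%) and 2233 lower (10.1%) at D27 by limma, or 591 and 1660 with library size only. This balance rests on NS-KO D27 replicate 2, without which 3728 were higher and 2041 lower. Without NS-KO D3 replicate 2 there were 172 higher and 1284 lower. Of the 2233 lower ones, 1959 were mitochondrial, and 20 of the 239 higher ones were, against 7110 of all 22065 sequences tested. That background takes in all 10659 sequences of NS-KO D27 replicate 1, 7976 of them nuclear, because 1 read there exceeds 20 CPM. With every library thinned to the fewest reads, 161 were higher and 1514 lower. Of 2416 main calls still tested then, 1157 were kept and 20 changed sign. Depth also limits the count of lower sequences, because 1276 of them were at 0 reads in both D27 livers with a D3 mean no higher than 58.0 CPM, the mean of 3 reads there. The 817 with a D3 mean above that level included 701 mitochondrial sequences. The number of expressed sequences (at least 20 CPM) was 4353 and 5590 at D3 and 10659 and 4482 at D27, with overlapping groups (exact two-sided permutation p = 0.667, where 0.333 is the smallest p possible). In NS-KO D27 replicate 1 a single read was already worth more than 20 CPM, and after thinning all 4 libraries to 46973 reads the numbers were 11569 and 13085 against 10659 and 12842. The groups overlapped at either depth.

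The change from D3 to D27 was set against the same change in WT livers by 1 interaction test in the same limma fit. Of the 281 sums, 41 (14.6%) changed more negatively and 10 (3.56%) more positively in the knockout. For tRF-5c of Gly-CCC the WT livers had 1521 and 3010 CPM at D3 and 3946 and 3545 CPM at D27, and the 2 changes differed by −6.91 on the log2 scale (SE 0.944, limma adjusted p = 0.0021). For Other fragments of mt-His-GTG the WT livers had 6784 and 4452 CPM at D3 and 7426 and 3988 CPM at D27, and the difference was −4.19 (SE 0.534, limma adjusted p = 0.00161). For tRF-3a of Leu-CAA and Leu-CAG the WT values were 5005 and 2146 against 1405 and 842 CPM, and the difference was 1.68 (limma adjusted p = 0.00416). With library size only the split was 17 negative and 70 positive, 27 of the 51 calls were kept, these 3 among them, and 4 of the 51 changed sign without being called (Other fragments of Leu-TAA, mt-Leu-TAA, mt-Lys-TTT and mt-Trp-TCA).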

How the data were processed

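Small RNAs of 14 to 40 nt from mouse livers were sequenced after removal of amino acids, end repair and demethylation of m1A and m3C, so that fragments blocked by these groups could be read. The authors checked the reads with FastQC, trimmed them with cutadapt and aligned them to nuclear and mitochondrial tRNAs with Bowtie (versions not given in the sources used here). The deposited values (unit other) are whole-number reads per distinct sequence and library within blocks of text, listed again under each tRNA that matches. Here each of the 87699 sequences was counted once, with its subtype as deposited. 43.7% of reads match several isodecoders and are kept as sets. Position classes and coverage were derived from the alignments in the blocks, and 20 of 21 mitochondrial and 204 of 278 nuclear blocks lay on a RefSeq tRNA gene (GRCm38.p6).

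Features were tested with limma 3.58.1 in R 4.3.3 (trend, log2 CPM, prior count 2, 6 groups, 6 residual degrees of freedom, Benjamini-Hochberg within a family, threshold 0.05). TMM factors, written out in code, scaled fragments, sums and isodecoders, and library size scaled the shares. Fragments needed 20 CPM in a library. Sums by position and isodecoder were added after the data were seen. On simulated data the share of false calls was above the nominal level for single fragments. The limma adjusted p-values printed for single fragments may therefore be too small, and these fragments are examples to be read beside the sums. Named items are the 10 sums with the lowest p in each direction, the 10 with the highest mean, the 10 most-read fragments, the 5 with the lowest p in each direction among those of at least 100 reads, all classes and mitochondrial isodecoders, fixed lists and the followed tRF-1. Trailers printed, and the position and isodecoder sums named, were chosen after their values were seen. The members and lists were chosen with earlier results of these data known. Reads carry no molecular identifiers, so floors of 3 reads cover counting error only. Each group has 2 mice per the methods, a 2 against 2 permutation cannot reach below 0.333, and replicate numbers do not pair mice. Alternatives were another scaling, filter, prior count, test, depth and set of libraries. Python 3.11.15, pandas 2.3.3 and matplotlib 3.10.9 were used for tables and figures.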

Additional observations from a re-analysis of the deposited data

Results flagged for a closer look

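For the sums below, the D27 against D3 change differed between NS-KO and WT livers by the interaction test of the limma fit, given as the NS-KO change minus the WT change on the log2 scale. All were named in the comparison of NS-KO livers first, so they were chosen with that change known.

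Mitochondrial sums were more negative in the knockout: Other fragments of mt-Pro-TGG by −4.91, of mt-Ser-TGA by −4.76, of mt-His-GTG by −4.19, of mt-Asn-GTT by −3.41, of mt-Met-CAT by −2.46 and of mt-Gly-TCC by −2.40. The 5′ fragments of the same genome were too, with −5.05 for tRF-5b of mt-Ser-TGA, −4.85 for tRF-5b of mt-Gln-TTG and −3.40 for tRF-5c of mt-Gln-TTG. WT changes of these sums lay between −0.26 (Other mt-Asn-GTT) and 0.93 (Other mt-His-GTG), and none passed limma. With library size only, the differences of Other mt-Asn-GTT (−1.73), mt-Met-CAT (−0.74) and mt-Gly-TCC (−0.64) and of tRF-5c of mt-Gln-TTG (−1.73) did not pass limma.

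Nuclear glycine sums were also more negative, with −6.91 for tRF-5c of Gly-CCC, −4.43 for tRF-5c of Gly-GCC and −4.59 for tRF-1 of Gly-CCC, which was at 0 to 12.3 CPM in all WT livers.

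Sums that were more positive in the knockout were tRF-5b of Leu-CAA and Leu-CAG (2.57), tRF-3a of the same pair (1.68), tRF-3a shared by Gly-ACC, Val-AAC and Val-CAC (1.35), tRF-3a of Gln-CTG (1.22) and Other fragments of Leu-CAA and Leu-CAG (1.09). The part of depth and of the mitochondrial share, which is 10.8% and 14.0% in WT D0 livers and 43.7% and 42.7% in NS-KO D0 livers, was not tested.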

How the results depend on the processing

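With library size in place of TMM, calls moved from 19 higher and 49 lower to 47 and 29 for sums, from 6 and 27 to 13 and 10 for isodecoders, from 19 and 56 to 50 and 30 by position and isodecoder, from 239 and 2233 to 591 and 1660 for fragments, and the interaction count from 51 to 87. Under both scalings 19 higher and 29 lower sums were called, and no called sum changed direction, while 27 of the 51 interactions were kept and 4 changed sign. With TMM in place of library size, 3 subtypes were called (1 higher, 2 lower), and 2 subtypes reversed their sign. These were tRF-1, from 0.25 to −0.58 (limma adjusted p = 0.0383 with TMM), and tRF-5b, from 0.02 to −0.80 (limma adjusted p = 0.0383 with TMM). Fitting only the 4 NS-KO D3 and D27 libraries left 0 fragments (309 higher and 2495 lower at an unadjusted limma p under 0.05), 43 sums (3 higher, 40 lower), 48 sums by position and isodecoder, 2 subtypes and 4 read lengths, against 2472, 68, 75, 0 and 0. Fewer features were tested in that fit: 15382 fragments, 211 sums and 243 sums by position and isodecoder, against 22065, 281 and 302. A filter requiring counts in several libraries (the filterByExpr rule) tested 2337 fragments in place of 22065 and called 582 of them. Of the 513 main calls that it still tested, 487 were called in the same direction.

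Leaving out 1 library gave 1456 to 5769 fragments, 40 to 62 sums, 26 to 34 isodecoders, 1 to 4 position classes, 45 to 87 sums by position and isodecoder and 33 to 50 interaction calls. The lowest of the fragment, sum and interaction counts (1456, 40 and 33) came without NS-KO D3 replicate 2, and without NS-KO D27 replicate 2 there were 5769 fragments, with the balance turned to 3728 higher and 2041 lower, and 45 sums. Higher sums numbered 7 to 9 without NS-KO D3 replicate 2 or either D27 library, against 19. Position classes fell to 1 without NS-KO D3 replicate 2 and to 2 without either D27 library. The replicate numbers did not pair the livers (same-numbered deviations correlated at −0.043 over the sums), and a fit with the replicate block called 2415 fragments, 61 sums, 32 isodecoders, 6 position classes, 68 sums by position and isodecoder and 48 interactions.

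The number of expressed sequences was higher by 2599 at D27, lower by the thinned values (−576.7, or −271.8 with at least 2 reads required), and ran from −489.5 (without NS-KO D27 replicate 1) to 5687.5 with 1 library left out. Of 1077 alternative values of 99 named results, 890 kept direction and call, 109 lost and 31 gained a call, 45 uncalled or shifting values moved and 2 reversed. The cause was not tested. edgeR's quasi-likelihood test, listed as an alternative, was not run.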
